A study of Mus musculus with 8 samples.

Results

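The transcriptome of resting mouse Paneth cells was described from the 4 libraries of mice injected with phosphate-buffered saline (PBS), out of 8 libraries in the series. The series was made to follow the response to tumor necrosis factor, and the other 4 libraries are not used here. All 4 PBS libraries came from wild-type mice, which the study names as C57BL/6J. The small intestine was taken 3 h after the injection, and Paneth cells were purified on a cell sorter as CD24 high, c-Kit+ cells, with endothelial, leukocyte and erythroid cells gated out, before RNA isolation and stranded mRNA library preparation. What was described is every gene outside the alpha-defensin (Defa) family, chosen by symbol: 28 protein-coding Defa genes were set aside from 55414 gene IDs. Of the remaining 55386 IDs, 21538 had a count in at least 1 library, and 12734 had at least 10 counts in each of the 4. The study speaks of samples from individual mice, while the legend of its sorting scheme says that cells were pooled, and the labels say nothing of cages, litters or preparation days, so the spread given below is that between these samples and may be in part technical.

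Paneth cells sit at the base of the crypts of Lieberkühn, between the dividing stem cells. They fill large apical granules with antimicrobial proteins and release them into the crypt lumen, and they make growth signals for the neighbouring stem cells. This work rests on a dense rough endoplasmic reticulum (ER) and on transcription factors shared with goblet cells, the mucus-secreting cells of the same epithelium.

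Levels are given as plain CPM (counts scaled to the library's total, Defa included) and as percentages of the counts outside the Defa family. A CPM value is not corrected for length, so CPM values of different genes set side by side give counts and not an order of transcript levels. That order is read from TPM, in which counts are divided by gene length and scaled to the same total over all genes, Defa included. A pair of lengths was used for TPM, the union of all annotated exons and the canonical transcript, because they differ widely for some genes. Values are means ± SD over the 4 libraries (n = 4), and no test was run, since there is no second group.

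The libraries of replicates 1 to 4 held 29704095, 25611725, 23824717 and 32576077 counts. The Defa genes took 33.4, 37.9, 37.9 and 32.0% of them, which left between 14788583 and 22144440 counts per library for the genes described here. The study reports many multi-mapped reads among the similar Defa genes, and how such reads were counted here is not given. The Defa share depends on that, and so does every CPM and TPM scaled to a total with Defa included. The Pearson correlation of log2 CPM across genes, which are not independent replicates, was 0.972 to 0.990 between libraries. No pair of libraries agreed within sampling noise (chi-square per degree of freedom 5.80 to 46.4), so none was the same library deposited again. Separate preparations of 1 sample could exceed that noise too. All 4 were kept as separate samples because their labels number them so. Replicates 2 and 3 were the closest pair, and replicate 4 was the farthest from both.

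Outside the Defa family the transcriptome was dominated by a pair of secreted proteins. Lyz1, the Paneth cell lysozyme, which cuts bacterial cell walls, held 22.9, 28.0, 27.5 and 23.7% of the non-Defa counts in replicates 1 to 4. Itln1, intelectin, a lectin that binds microbial sugars, held 9.30, 10.9, 10.7 and 8.88%. In these count shares replicates 2 and 3 were high and replicates 1 and 4 low for both genes. In TPM, which is taken over all genes with Defa included, replicate 4 was the highest for both genes. Lyz1 had 116855, 122847, 120016 and 127699 TPM with union exons, and Itln1 had 46471, 46705, 45678 and 46781 TPM. Counting error was far smaller than this spread, at most 0.0227 percentage points on either side (95% Wilson interval, counting error only). The ratio of Lyz1 to Itln1 counts was 2.46, 2.58, 2.57 and 2.67, so the balance between the pair moved by less than either share did. In plain CPM, Lyz1 reached 164677 ± 9679 and Itln1 64065 ± 3445. Per length, Lyz1 stood at 121854 ± 4601 TPM and Itln1 at 46409 ± 505 TPM with union exons, and Mptx2 followed at 10090 ± 1603 TPM.

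**Figure D1:**
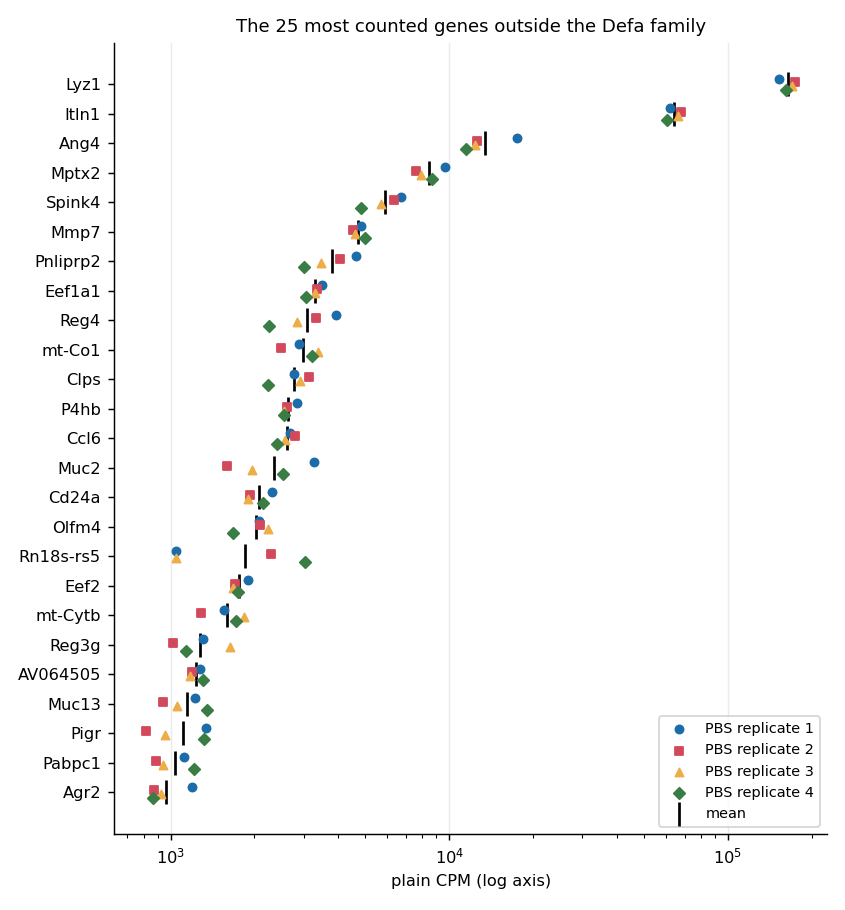
Plain CPM (log axis) of the 25 genes with the highest mean CPM outside the Defa family, 1 point per PBS library, with a black bar at the mean. Lyz1 and Itln1 stand apart at 164677 and 64065 CPM on average, and from Spink4 downward the libraries of neighbouring genes overlap.

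The counts were concentrated in few genes. The 10 genes with the highest mean held 40.2, 46.0, 45.2 and 38.7% of the non-Defa counts. The number of genes needed to reach 50% was 81, 25, 31 and 124, the lowest in replicates 2 and 3. The cumulative curve rises slowly at that height, so small differences in the share of the leading genes move this number far. Reaching 90% took 4176, 3785, 3864 and 4443 genes. Without Lyz1 and Itln1, the remaining 61.1 to 67.8% of the counts were spread far more evenly, and 595 to 823 genes were needed to hold 50% of that remainder. By level, 24 genes had a mean of at least 1000 CPM, 642 at least 100 CPM and 4287 at least 20 CPM. Protein-coding genes held 98.2 ± 0.222% of the non-Defa counts and long noncoding RNAs 1.07 ± 0.102%.

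**Figure D2:**
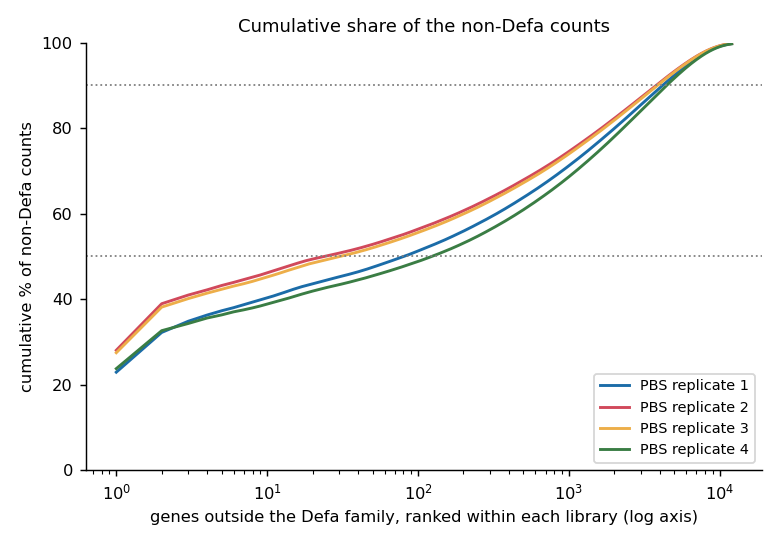
Cumulative percentage of the non-Defa counts over genes ranked within each PBS library (log axis), with dotted lines at 50 and 90%. The curves start at 22.9 to 28.0% with Lyz1, and replicates 2 and 3 run above replicates 1 and 4.

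Ranges of neighbouring genes were separate at the top of the order and mostly overlapped below it. By CPM, the first 4 ranks (Lyz1, Itln1, Ang4, Mptx2) were taken by the same genes in all 4 libraries, with no overlap between neighbours. Among the 20 neighbouring pairs from rank 1 downward, 16 had overlapping ranges, although within each of the 4 libraries Mmp7 stayed above Pnliprp2 and mt-Cytb above Reg3g. The 20 highest genes of single libraries made up a set of 24 genes, of which 18 were in the top 20 of all 4 libraries. Per length with union exons, the order after Itln1 was Mptx2, Spink4 (7792 ± 1029 TPM), Ang4 (7211 ± 1619 TPM) and Mmp7 (3681 ± 390 TPM), and the ranges of Mptx2 and Spink4 and of Spink4 and Ang4 overlapped. With canonical transcripts, Ang4 moved to the third place at 15167 ± 3322 TPM, since its canonical transcript has 715 bases and its union of exons 1766.

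Lyz1 (ENSMUSG00000069515) lies on the minus strand of chromosome 10 at chr10:117123698-117128775 (GRCm39). Its neighbour Lyz2 (chr10:117111557-117118346), the lysozyme of macrophages, is a close copy. Lyz2 had 10.5, 10.8, 12.5 and 8.47 CPM in replicates 1 to 4, and Lyz1 had 152625, 174237, 170468 and 161379 CPM. There were 13675 to 19047 Lyz1 counts for each Lyz2 count. Of the 75-base stretches of the canonical transcripts, 93.8% for Lyz1 and 86.7% for Lyz2 occur in no transcript of another gene, so reads from most of either transcript match 1 gene. The sources used here do not say how reads that match both were counted, and the few Lyz2 counts are uncertain for that reason. The bases just upstream of the start sites are shown because the pair differed so much in level while these bases hardly differ. They are the 100 bases before the RefSeq start (GRCm38.p6, both on the minus strand, chr10:117292869-117292968 and chr10:117282273-117282372), 5′ to 3′, with the positions that differ in capitals.
Lyz1: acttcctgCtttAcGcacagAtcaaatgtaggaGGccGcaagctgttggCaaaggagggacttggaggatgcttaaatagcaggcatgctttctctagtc
Lyz2: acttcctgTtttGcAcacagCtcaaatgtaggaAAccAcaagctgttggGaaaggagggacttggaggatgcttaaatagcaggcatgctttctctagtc
The windows were identical at 92 of 100 positions, and the 8 differences lay 51 to 92 bases before the start. The other lysozymes were nearly silent: Lyzl4 had 0.134 ± 0.0260 CPM, and Lyzl1, Lyzl6 and Spaca3 had no count. A count of 0 allows a level of up to 0.0921 to 0.126 CPM in these libraries (3 counts, counting error only).

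Itln1 (chr1:171345690-171368943, GRCm39) was joined by the pentraxin Mptx2 (chr1:173101949-173105344), a bacteria-binding protein of mucosa. Mptx2 had 9664, 7580, 7893 and 8685 CPM, or 1.30 ± 0.10% of the non-Defa counts. The 7 genes of the intelectin and pentraxin list held 11.2 ± 0.940% of the counts, 88.3% of it Itln1, and 18.9% (union exons) or 16.5% (canonical transcripts) of the non-Defa TPM. Mptx1, a related pentraxin, was low and uneven, at 36.4, 5.62, 6.88 and 8.78 CPM, and replicate 1 stood above the other 3. Apcs and Ptx3, pentraxins of serum and of inflamed tissue, had no count.

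Ang4 (chr14:51990721-52011053, GRCm39), an angiogenin-family ribonuclease that kills gut bacteria, was the third gene by CPM. It had 17456, 12600, 12363 and 11453 CPM, highest in replicate 1. The ribonuclease list held 2.25 ± 0.399% of the non-Defa counts, and 92.5% of that was Ang4. Of the non-Defa TPM it held 2.60% with union exons and 4.80% with canonical transcripts. Rnase4, Rnase1 and Ang followed at 595 ± 9.20, 396 ± 80.2 and 83.0 ± 5.25 CPM. Rnase4 and Ang share 1387 exon bases on the same strand, so their counts cannot be fully separated. Ang5, Ang6, Rnase2a and Rnase10 had no count.

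Mmp7 (chr9:7692091-7699587, GRCm39), matrilysin, the protease that cuts pro-defensins into active peptides in the mouse, had 4833, 4501, 4583 and 4980 CPM, or 0.725, 0.724, 0.738 and 0.733% of the non-Defa counts. Per length it spread more, with 3881, 3328, 3384 and 4132 TPM on union exons. The long noncoding RNA AV064505 lies on the opposite strand of the same place and shares 123 exon bases with it. AV064505 was the most counted noncoding RNA of its class (1237 ± 63.2 CPM), and its counts were 0.263, 0.265, 0.256 and 0.262 of those of Mmp7. The sources used here do not say whether strand was used in counting, so reads of both genes cannot be told apart in the shared bases.

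Mmp7 belongs to the list of secreted lipases, proteases and gut peptides and made up 31.6% of its counts. The whole list held 2.32 ± 0.173% of the non-Defa counts and 4.12% (union exons) or 3.68% (canonical transcripts) of the non-Defa TPM. Of its 23 genes, 13 had at least 10 counts in every library, a share close to that of all protein-coding genes (11297 of 21599). A further 6 genes of the list had no count. Pnliprp2, a pancreatic-type lipase, had 4620, 4062, 3477 and 3008 CPM, and its cofactor colipase, Clps, had 2772, 3150, 2903 and 2234 CPM. Per length this order turned, with 3625 ± 346 TPM for Clps and 2227 ± 422 TPM for Pnliprp2 on union exons. The phospholipase genes Pla2g2a and Pla2g2f had 526 ± 95.5 and 292 ± 33.5 CPM, which says nothing about active protein. Guca2a and Guca2b, the precursors of guanylin and uroguanylin that regulate salt and water secretion, had 728 ± 92.7 and 508 ± 53.5 CPM. The pancreatic trypsinogen genes Prss1, Prss2, Prss3, Try4 and Try10 and the carboxypeptidase gene Cpa1 were the 6 without a count, and Try5 had 0.0258 CPM on average.

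Among the Reg lectins, secreted antimicrobial C-type lectins, Reg4 had 3912, 3318, 2843 and 2259 CPM. Reg3g, which targets Gram-positive bacteria, had 1305, 1023, 1629 and 1138 CPM, and Reg3b had 222, 142, 251 and 162 CPM. Reg3g and Reg3b were both highest in replicate 3, then 1, then 4, and lowest in replicate 2. Reg1, Reg2, Reg3a and Reg3d stayed at 1.47 CPM or below on average. The whole list held 0.706 ± 0.127% of the non-Defa counts and 1.05% (union exons) or 1.2% (canonical transcripts) of the non-Defa TPM. Per length Reg4 stood at 2457 TPM with union exons and 2408 TPM with canonical transcripts, and Reg3g at 557 and 1314 TPM.

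Promoter sequences were available from RefSeq (GRCm38.p6) for 30 of the 40 genes with the highest CPM. A TATA-like motif, written TATAA or TATAT, was searched on the strand of the gene with its first letter between -50 and -20 from the start. It was present for 10 of these 30 genes (33.3%). Counted in the same way, with a match at any start of a gene, 6.88% of all 27025 genes in the table held it, and 5.81% of all 32851 promoters. On the other strand it was found for 7 of the 30 genes, all of them among the 10, against 5.25% of all genes, and matches on both strands can share letters. No test was run on these shares. The 10 genes were Ang4, Mmp7, Mptx2, Reg4, Reg3g, Muc2, Fcgbp, Olfm4, Fth1 and Lbh. The 100 bases before the start of the secreted antimicrobial genes and of Mmp7 among them are shown with the motif in capitals, next to Itln1, which has none, and Reg3b.
Itln1 (chr1:171535295-171535394, minus strand): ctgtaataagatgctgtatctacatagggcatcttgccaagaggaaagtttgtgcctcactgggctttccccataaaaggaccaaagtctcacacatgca
Mptx2 (chr1:173277757-173277856, minus strand): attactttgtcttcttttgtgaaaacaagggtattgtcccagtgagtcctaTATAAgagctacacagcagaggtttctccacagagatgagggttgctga
Ang4 (chr14:51773591-51773690, minus strand): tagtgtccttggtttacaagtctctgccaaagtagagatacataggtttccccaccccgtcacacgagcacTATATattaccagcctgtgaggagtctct
Mmp7 (chr9:7691990-7692089, plus strand): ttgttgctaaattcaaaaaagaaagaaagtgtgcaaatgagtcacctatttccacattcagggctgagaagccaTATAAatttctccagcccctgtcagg
Reg4 (chr3:98222056-98222155, plus strand): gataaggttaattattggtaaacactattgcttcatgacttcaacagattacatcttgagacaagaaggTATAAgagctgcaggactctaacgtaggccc
Reg3g (chr6:78468875-78468974, minus strand): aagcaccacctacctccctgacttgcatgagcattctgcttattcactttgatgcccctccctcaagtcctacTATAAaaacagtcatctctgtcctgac
Reg3b (chr6:78370785-78370884, plus strand): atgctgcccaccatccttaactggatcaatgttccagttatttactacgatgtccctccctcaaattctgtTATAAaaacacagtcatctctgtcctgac
The motif began at -26 in Mmp7, -27 in Reg3g, -29 in Ang4 and Reg3b, -31 in Reg4 and -49 in Mptx2. A match in these letters is a description of the window and not evidence of a factor bound there. Mmp7 has a further RefSeq start, and the one with the motif is shown.

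Mucus proteins, usually named for goblet cells, were also abundant. The list held 2.41, 1.90, 1.90 and 1.72% of the non-Defa counts, and all 12 of its genes with at least 10 counts in every library lay above the median of 11.3 CPM of all 12734 such genes. Spink4, a small secreted protease inhibitor, had 6688, 6341, 5699 and 4840 CPM. Muc2, the gel-forming mucin, had 3264, 1592, 1967 and 2542 CPM, and Fcgbp, which is secreted with it, had 1419, 690, 656 and 747 CPM. Agr2, the ER protein that folds mucins, had 1198, 872, 921 and 865 CPM, and Tff3, the trefoil peptide, 733, 683, 694 and 621 CPM. Clca1, a secreted protease of goblet cell mucus, had 695 CPM in replicate 1 and 46.2, 45.8 and 55.7 CPM in replicates 2 to 4. Replicate 1 was highest for Muc2, Fcgbp, Agr2, Clca1 and Zg16 (49.8, 31.4, 25.1 and 38.4 CPM), and by little for Tff3. Spdef, a transcription factor and the seventh goblet cell marker, was highest in replicate 4 (99.6, 76.9, 79.6 and 126 CPM). The 7 goblet cell markers summed to 7459 CPM in replicate 1 and to 3992 to 4995 CPM in the others, and their mean fell from 5209 ± 1556 to 4459 ± 505 CPM without replicate 1. The mucus list averaged 1.98 ± 0.297% of the counts with replicate 1 and 1.84 ± 0.102% without it. Of the non-Defa TPM it held 3.54% (union exons) or 3.36% (canonical transcripts). The Clca1 mean of 211 CPM rests on that library. In bulk RNA, more goblet-type cells and more of these transcripts per Paneth cell cannot be told apart, and which of them applies was not tested. The study describes its sorted Paneth cells as nearly free of other cells.

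**Figure D3:**
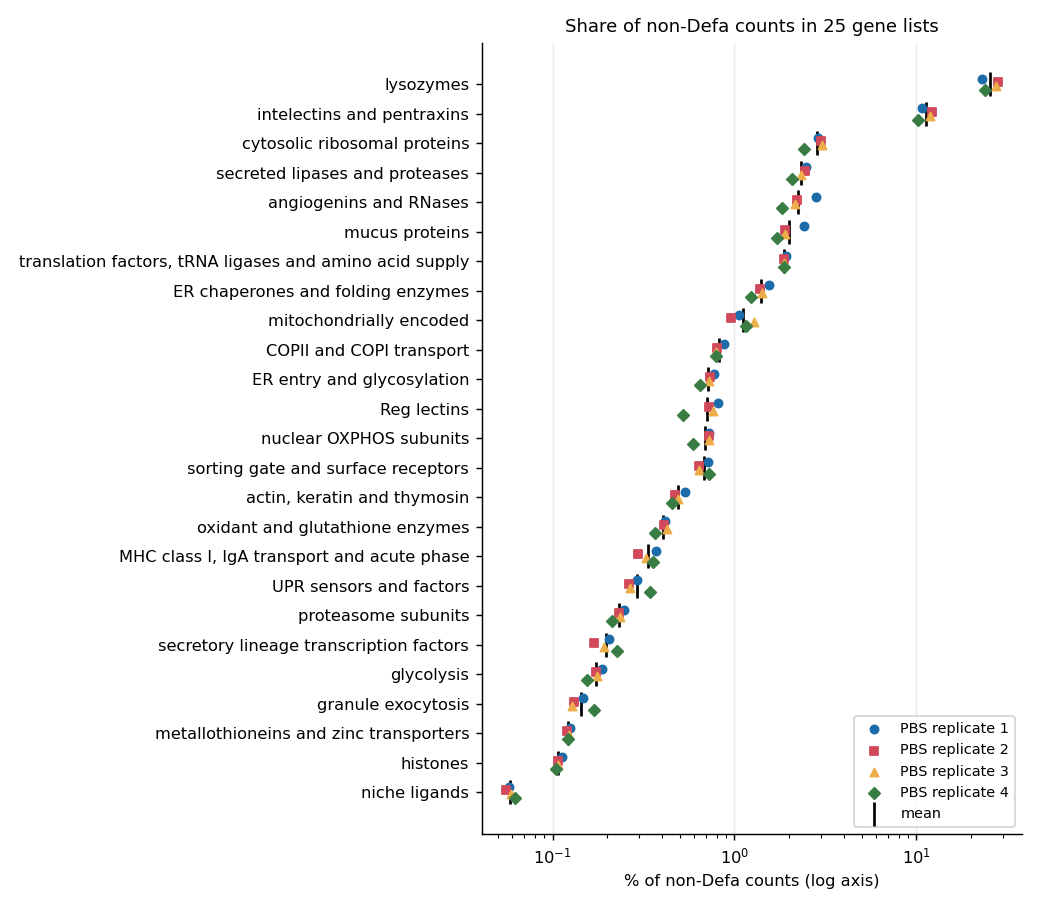
Percentage of the non-Defa counts (log axis) held by each of 25 gene lists, 1 point per PBS library, with a black bar at the mean. Lysozymes (25.5%) and intelectins and pentraxins (11.2%) lead, and every other list is at 2.83% or below on average in these counts, which are not corrected for length.

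Nearly every gene of the ER and Golgi machinery was detected. The 6 lists of secreted products together held 44 ± 3.52% of the non-Defa counts with 71 genes, and the 3 lists of ER and Golgi machinery held 2.93 ± 0.216% with 105 genes. Per length, on canonical transcripts, the same sets held 61.6 ± 2.42% and 1.69 ± 0.0945% of the non-Defa TPM. Of those 105 genes, 104 had at least 10 counts in every library, against 11297 of all 21599 protein-coding genes outside the Defa family. All 32 ER chaperones and folding enzymes with such counts lay above the median of all genes, as did 29 of 31 genes of ER entry and glycosylation and all 41 genes of COPII and COPI vesicle transport. So did all 37 genes of the translation list and 78 of 81 ribosomal protein genes with such counts. It was 78 of 88 for nuclear subunits of oxidative phosphorylation and 38 of 46 for proteasome subunits. A place above the median was thus not particular to the secretory machinery. P4hb, the protein disulfide isomerase that forms the disulfide bonds of secreted proteins, had 2844, 2624, 2549 and 2560 CPM and made up 29.5% of the chaperone list. Qsox1, a secreted sulfhydryl oxidase, had 835 ± 32.0 CPM. Calr and Hspa5 (BiP), chaperones of the ER lumen, had 615 ± 86.8 and 602 ± 137 CPM, and Hspa5 was highest in replicate 1 (782 CPM) and lowest in replicate 4 (449 CPM). Surf4, a cargo receptor of the ER, had 405 ± 22.4 CPM, a value that is uncertain because 79.8% of its exon bases are shared with Surf2 on the opposite strand and 28.1% of the 75-base stretches of its transcript are unique. Of the 31 genes of granule exocytosis, 20 had at least 10 counts in every library, against the same 11297 of 21599 protein-coding genes. Of these 20, 13 lay above the median of all genes. Among them were Rab3d, a small GTPase of secretory granules (342 ± 17.4 CPM), and Sytl2 (140 ± 78.8 CPM).

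Sensors and factors of the unfolded protein response, which matches ER capacity to secretory load, were present at moderate levels. Xbp1, its main transcription factor in secretory cells, had 312, 279, 274 and 304 CPM, and Bhlha15 (Mist1), which shapes secretory cells, had 295, 238, 247 and 272 CPM. Ern1 and Ern2, the ubiquitous and the epithelial form of the sensor that splices Xbp1, had 138 ± 47.3 and 87.3 ± 26.1 CPM. Atf4, of the translational arm, had 186 ± 31.4 CPM, but Ddit3 (CHOP), which is linked to cell death under ER stress, had 3.59 CPM on average. Nupr1, a small stress-response protein, was uneven, with 349, 306, 339 and 671 CPM. Replicate 4 alone was high.

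Of the 30 genes on the list of secretory lineage transcription factors, 27 had at least 10 counts in every library, against 11297 of all 21599 protein-coding genes. Of these 27, 21 lay above the median of all genes. Sox9, required for Paneth cells, had 105 ± 16.6 CPM, Atoh1, the master factor of secretory cells, had 95.4 ± 19.3 CPM, and Spdef, shared with goblet cells, had 95.5 ± 22.7 CPM. Gfi1, which acts below Atoh1, had 20.1 ± 4.39 CPM. Hnf4a, an epithelial factor, had 223 ± 34.5 CPM. Neurog3 and Neurod1, of the enteroendocrine lineage, had 0.822 and 0.199 CPM.

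Ligands for the stem cell niche together held 0.0586 ± 0.00279% of the non-Defa counts, and 0.0292% (union exons) or 0.0261% (canonical transcripts) of the non-Defa TPM. Of the 30 genes, 15 had at least 10 counts in every library, a share close to that of all protein-coding genes (11297 of 21599). Of these 15, 7 lay above the median of all genes, which is close to an even split. Wnt3, the Wnt ligand of Paneth cells, had 143, 148, 152 and 155 CPM. Egf, a growth factor for stem cells, had 48.5, 46.5, 46.1 and 50.4 CPM. The Notch ligands Dll4 and Dll1 had 32.9 ± 4.78 and 31.2 ± 5.88 CPM. On the opposite strand, Dll1 shares 27.6% of its exon bases with Fam120b and Dll4 15.6% with Gm14207. Rspo1, Rspo3, Wnt3a, Nrg1 and Nog, signals usually made by stroma or other cells, had no count.

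Metallothioneins and zinc transporters held 0.122 ± 0.00208% of the non-Defa counts, and 0.0465% (union exons) or 0.0575% (canonical transcripts) of the non-Defa TPM. Slc39a11 and Slc30a2 had 183 ± 3.52 and 132 ± 8.88 CPM. Slc30a2 (ZnT2) carries zinc into Paneth cell granules, and 56.1% of the stretches of its transcript are unique. The metallothioneins Mt1 and Mt2, which bind zinc, had 19.3 ± 3.34 and 4.53 ± 1.32 CPM.

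Genes of protein synthesis and energy supply, which every cell uses, each held a few percent or less. The 86 cytosolic ribosomal protein genes held 2.83 ± 0.281% of the non-Defa counts, with the lowest value in replicate 4 (2.42%). Translation factors, transfer RNA ligases and amino acid supply held 1.88 ± 0.0315%, with Eef1a1 (3304 ± 178 CPM) and Eef2 (1754 ± 100.8 CPM). Mitochondrially encoded genes held 1.11 ± 0.139% and nuclear subunits of oxidative phosphorylation 0.688 ± 0.0664%. Glycolysis held 0.173 ± 0.0133%, proteasome subunits 0.232 ± 0.0144% and histones 0.108 ± 0.00370%. Several of these shares also depended on length. Of the non-Defa TPM with union exons and with canonical transcripts, ribosomal proteins held 2.46 and 4.43%. The translation list held 0.742 and 1.28% on the same scales. Mitochondrially encoded genes, with 1.88 and 1.47%, stood above their share of counts on both. For nuclear subunits of oxidative phosphorylation the values were 0.453 and 0.925%, for glycolysis 0.0674 and 0.140%, and for proteasome subunits 0.111 and 0.197%. The actin, keratin and thymosin list held 0.489 ± 0.0354%, with the epithelial keratins Krt8 and Krt18 at 351 ± 40.2 and 316 ± 30.9 CPM. Values of Gapdh, Aldoa and Ftl1 are uncertain, since only 14.6, 14.5 and 15.3% of the 75-base stretches of their transcripts are unique to them. The same share was 31.9% for Tpt1, 49.3% for Rplp0 and 58.3% for Eef1a1.

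Of the 28 genes of antigen display, IgA transport and the acute phase, 19 had at least 10 counts in every library. Of all 21599 protein-coding genes outside the Defa family, 11297 met this limit. Of the 19 genes, 10 lay above the median of all genes. Pigr, which carries IgA into the lumen, had 1343, 817, 955 and 1314 CPM. The class I genes H2-K1 and H2-D1 and the shared light chain B2m had 324 ± 13.6, 180 ± 7.66 and 195 ± 5.98 CPM. The acute-phase genes Lcn2, Saa1, Saa2 and Saa3 had 0.0714, 0.0168, 0.0168 and 0.0461 CPM on average, and Nos2 had 2.21 CPM. Tnfrsf1a, the receptor for tumor necrosis factor, had 77.3 ± 13.1 CPM, while the pattern receptors Nod2, Tlr4 and Tlr9 had 0.689, 0.13 and 0.00842 CPM on average. The chemokine Ccl6, on no list, was the 13th gene by CPM with 2673, 2793, 2565 and 2418 CPM. The lists named 30 of the 40 highest genes, and the other 10 were Ccl6, Olfm4, Rn18s-rs5, AV064505, Serinc3, Lbh, Serp1, Hdlbp, Spint2 and Tm9sf3. Rn18s-rs5, a ribosomal RNA gene, had 1048, 2289, 1048 and 3029 CPM and was high in replicates 2 and 4.

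The label of sorted Paneth cells was checked against its markers. Lyz1, Itln1, Ang4 and Mmp7 were ranked 1, 2, 3 and 6 by CPM and 1, 2, 5 and 6 by TPM on union exons (1, 2, 3 and 7 on canonical transcripts), and summed to 236897 to 258985 CPM. Cd24a and Kit, the surface proteins used for sorting, had 2069 ± 194 and 224 ± 56.2 CPM. Pecam1 and Ptprc, genes of the endothelial and leukocyte antigens used to discard cells, had at most 0.0781 and 0.420 CPM in any library. All 4 T cell markers were at 0 counts, as were Cd79a and Jchain of B and plasma cells, Adgre1, S100a8 and S100a9 of myeloid cells, Mcpt1, Mcpt2 and Cpa3 of mast cells and Col1a1, Col1a2 and Col3a1 of stroma. Other members of the B cell, mast cell and stroma lists had few counts, with at most 5 for Ms4a1, 3 for Fcer1a and 18 for Vim in any library. The myeloid sum of 13.1 to 14.6 CPM held Lyz2 (10.6 CPM on average), Csf1r (2.36, 2.15, 1.76 and 3.84 CPM) and traces of Itgam and Cd68 (0.374 and 0.171 CPM).

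**Figure D4:**
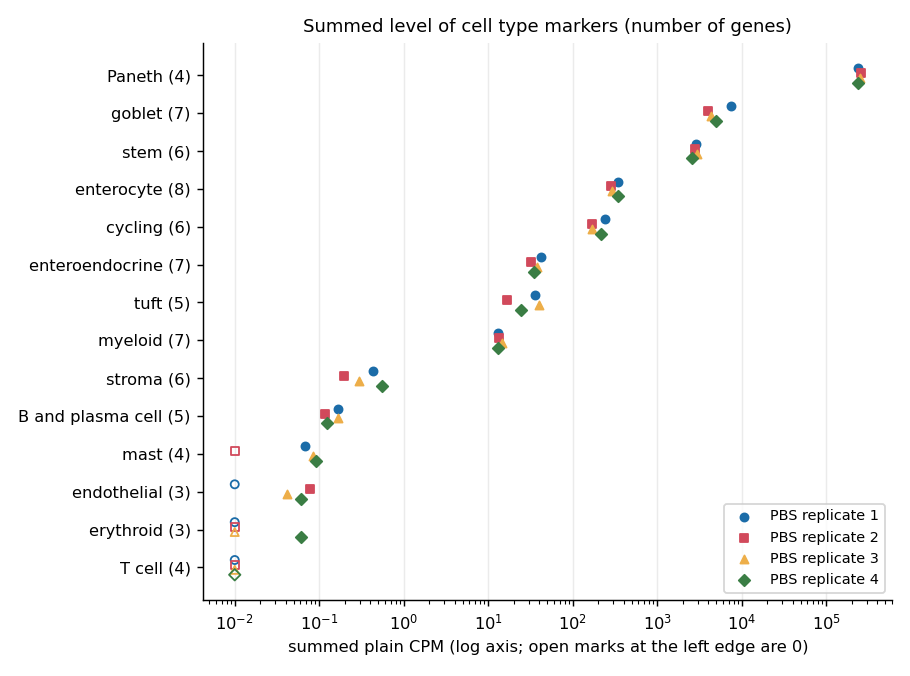
Summed plain CPM (log axis) of the markers of 14 cell types, with the number of genes in brackets and 1 point per PBS library; open points at the left edge are sums of 0. Paneth markers reach 236897 CPM or more, epithelial types lie between 16.8 and 7459 CPM, and all immune, stromal and vessel types except the myeloid list stay under 1 CPM.

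Markers of other epithelial types were present at unequal levels. Olfm4, known from stem cells, had 2068, 2096, 2231 and 1675 CPM. The other 5 stem cell markers were Slc12a2 at 507 ± 74.3, Smoc2 at 141 ± 6.70, Lgr5 at 62.1 ± 9.18, Axin2 at 59.0 ± 13.1 and Ascl2 at 10.6 ± 2.41 CPM. Per length Olfm4 had 635 TPM and Slc12a2 37.9 TPM with union exons. Of the 8 enterocyte markers Vil1, which crypt cells also express, had 274 ± 30.8 CPM and Fabp2 26 ± 4.57 CPM, and the others were at 5.32 CPM or below on average. The 6 cycling markers summed to 241, 171, 167 and 214 CPM, and Mki67 had 58.4, 20.5, 25.1 and 68.3 CPM. Mki67, a transcript of 10270 bases, was high in replicates 1 and 4, as to a lesser degree was Top2a (94.2, 72.7, 67.2 and 78.2 CPM). Birc5 was lowest in replicate 3 (13.0, 10.7, 8.90 and 9.45 CPM), and Cdk1 (19.8, 15.5, 15.0 and 12.6 CPM), Ccnb1 (15.4, 12.7, 11.2 and 11.1 CPM) and Pcna (40.6, 38.8, 40.1 and 34.7 CPM) were lowest in replicate 4. The enteroendocrine markers summed to 31.7 to 42.7 CPM and the tuft cell markers to 16.8 to 40.3 CPM. How far cells of these types contributed was not tested.

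The spread between libraries was modest and similar over the classes of level examined. Among the 24 genes of at least 1000 CPM, the median coefficient of variation was 13.4%, and 17 had a highest library less than 1.5 times the lowest. Among the 618 genes from 100 to 1000 CPM the median was 11% and 506 stayed within 1.5 times. Among the 3645 genes from 20 to 100 CPM the median was 14.3% and 2370 stayed within 1.5 times. The 12 genes of at least 100 CPM with the smallest spread of log2 CPM were Rnase4, Itm2b, Slc39a11, Lamp1, Rpl41, Ftl1, Sdcbp, Laptm4a, Rhoa, Spint2, Hopx and Stard10. Rnase4, for example, had 604, 584, 591 and 601 CPM. This choice depended on the scaling: with TMM factors (0.892 to 1.17) none of the 12 stayed among the smallest, and the median of all genes of at least 20 CPM, which lay at 0.10, -0.15, -0.13 and 0.19 in log2 units from the mean of the libraries, moved to 0.01, 0.02, 0.01 and -0.03.

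The 12 genes of at least 20 CPM with the largest spread were Clca1, Xist, Tmf1, Mir6236, Ogt, Golga4, Nktr, Golgb1, Gvin-ps3, Akap9, Kmt2a and Tpr, and 11 of them were also among the 12 largest with TMM scaling. Of the 12, 10 were highest in replicate 4. Golga4 and Golgb1, long coiled-coil proteins of the Golgi, had 90.9, 35.4, 43.6 and 172 CPM and 85.2, 31.7, 43.9 and 156 CPM. Akap9, a scaffold of the Golgi and centrosome, had 68.1, 28.8, 35.3 and 129 CPM. The order of the libraries was 4, 1, 3, 2 for these 3 genes. Most are long transcripts, so the deviation of each library was read by transcript length. In 4210 protein-coding genes of at least 20 CPM, replicate 4 deviated by -0.12 (median log2 units) for transcripts up to 1000 bases and by 0.46 for those over 8000 bases. Replicate 2 went from -0.01 to -0.34 and replicate 3 from 0.03 to -0.26, while replicate 1 stayed between 0.08 and 0.13. With TMM scaling the same ends were -0.34 and 0.24 for replicate 4 and 0.15 and -0.17 for replicate 2. Of the 348 longest genes 339 (97.4%) were higher in replicate 4 than in replicates 2 and 3, against 31 of the 169 shortest (18.3%). Whether the difference came from the mice, from RNA quality or from library preparation was not tested.

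**Figure D5:**
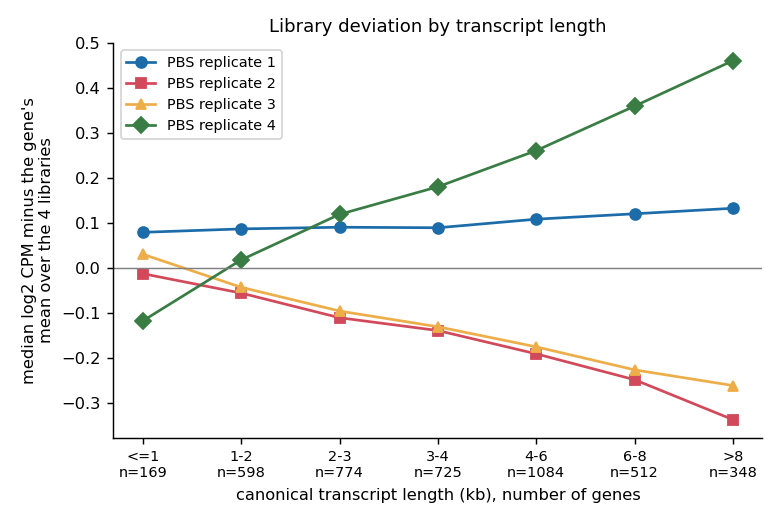
Median deviation of each PBS library from a gene's mean log2 CPM, for protein-coding genes of at least 20 CPM grouped by canonical transcript length in kb, with the number of genes under each group. Replicate 4 climbs from -0.12 to 0.46 and replicates 2 and 3 fall to -0.34 and -0.26 as length grows.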

How the data were processed

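RNA-seq was analysed in the 4 PBS libraries of sorted Paneth cells, grouped and numbered as in their labels. The authors deposited raw counts per Ensembl gene ID, without normalization. The submitters' processing notes name FastQC 0.12, STAR 2.7.10a, DESeq2 and the mm39 build, with no role given. The sources used here name no counter or annotation for the table and do not say how multi-mapped reads and strand were treated. Symbols, positions (GRCm39) and lengths came from GENCODE M39: 54749 of 55414 IDs matched. The 665 others held 0.0391 to 0.0500% of the counts and stayed in the totals. All 8 columns were matched to a sample, and 0 were left unmatched.

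CPM, percentages of non-Defa counts and TPM were computed with Python 3.11.15, pandas 2.3.3 and numpy 2.4.6, and TMM factors with edgeR 4.0.16 in R 4.3.3. Share and rank calculations were tested on simulated data. No group test was run. Detection meant at least 10 counts in each library. Genes that share reads with other genes were checked by the 75-base stretches of the transcripts and by exon overlap.

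The members, the 25 gene lists and the 14 marker lists were chosen with earlier results of these data known. Named were the 40 highest genes by mean CPM, the 20 highest by TPM, the 5 highest of each list, the Paneth and gate markers, the 12 genes of largest spread (mean of at least 20 CPM) and of smallest spread (at least 100 CPM), and markers of other cell types of at least 20 CPM, 170 genes in all. Other genes were named after their values were seen. Some genes under this rule are not reported here. Alternatives left out each library, counted Defa pseudogenes with the family, pooled the libraries, left out mitochondrially encoded genes, divided by union exon length, changed the detection limit or used TMM. Canonical transcript length, and TMM for the spread between libraries, were added after the data were seen.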

Additional observations from a re-analysis of the deposited data

Results flagged for a closer look

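Among 211 values examined over the 4 libraries, 18 (8.53%) had 1 library whose gap to the nearest other exceeded the Dixon limit. Chance flags about 1 in 20 such groups of 4, if they are independent and not chosen by their spread. The values here include genes named for their spread in these same libraries, such as Clca1. They also include gene lists next to genes that belong to them, such as the translation list and Tpt1. The share of 8.53% can therefore not be set against 1 in 20, and no conclusion is drawn from it. The flagged library was replicate 1 in 10 cases, replicate 4 in 5, replicate 2 in 3 and replicate 3 in 0.

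In replicate 1, Clca1 had 695 CPM against 45.8 to 55.7 in the others, Fcgbp 1419 against 656 to 747 and Agr2 1198 against 865 to 921, all genes of mucus. Replicate 1 was also apart for Mptx1 (36.4 CPM against 5.62 to 8.78), Reg1 (2.79 against 0.982 to 1.05), Rpl4 (682 against 639 to 642), Rpn2 (468 against 407 to 408) and Psmd2 (99.8 against 77.0 to 78.4). The COPII and COPI list held 0.879% of the non-Defa counts in replicate 1 against 0.793 to 0.802%, and the translation list 1.93% against 1.86 to 1.87%.

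In replicate 4, Nupr1 had 671 CPM against 306 to 349 in the others, Rplp0 769 against 939 to 954 and Tpt1 761 against 849 to 862. The nuclear OXPHOS list held 0.589% there against 0.720 to 0.723%. Replicate 4 also deviated by -0.12 in log2 CPM for transcripts up to 1000 bases and by 0.46 for those over 8000 bases, and the part of this in the values here was not tested. The erythroid markers summed to 0.0614 CPM, which is 2 counts, against 0 in the others. With the other 3 libraries at 0, any count would have passed the limit, so this value says nothing about that library.

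In replicate 2, H2-D1 had 168 CPM against 182 to 184, Smoc2 132 against 144 to 146 and Slc30a2 119 against 135 to 138. Of the transcript stretches of Tpt1, Rplp0 and Slc30a2, 31.9, 49.3 and 56.1% are unique, so these counts are uncertain. What set these libraries apart was not tested.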

How the results depend on the processing

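Dividing by length moved the main shares. With union exon length the Defa genes held 70.1% of all TPM, and Lyz1, Itln1 and the 10 highest genes held 40.8, 15.5 and 69.5% of the non-Defa TPM, with 50% held by 2.0 genes and 90% by 1086.5 on average. With canonical length, added after the data were seen, these values were 67.4, 32.1, 13.9 and 59.8%, 3.5 genes and 2059 genes. Leaving out 1 library at a time gave 34.4 to 36.4% for Defa, 24.7 to 26.4% for Lyz1, 9.62 to 10.3% for Itln1, 41.4 to 43.8% for the 10 highest genes, 45.7 to 78.7 genes for 50%, 3942 to 4161 genes for 90% and 12768 to 12978 detected genes. Detection at 1 count gave 15679 genes and at 1 CPM 11397. Under either length 24 of 25 lists moved by more than the SD between libraries. TMM factors lie around 1 and scale all genes of a library alike, so a mean over the libraries could hardly move, and nothing is read from it. No paired analysis was possible because the values come from no test between groups. Depth limits genes near the floor of 3 counts (0.0921 to 0.126 CPM).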
